A study of Homo sapiens with 12 samples.

Results

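The 10 genes described here, PGR, GREB1, TFF1, TFF3, PDZK1, CA12, IGFBP4, MYB, AREG and STC2, are textbook targets of oestrogen receptor alpha in breast cancer cells. They were chosen by name, but with earlier results of these data known. All 10 were found by symbol among the 19460 genes of the deposited expression table. The cells were T-47D, a wild-type human breast epithelial line that expresses the oestrogen and progesterone receptors. They were grown in DMEM with fetal bovine serum and exposed for 24 h to 1 µM palbociclib, an inhibitor of the cell cycle kinases CDK4 and CDK6, or to DMSO, the solvent control. The solvent was given as 0.1% for the ATAC-seq dishes. Poly(A) RNA was sequenced from 3 libraries per treatment, and open chromatin was mapped by ATAC-seq, in which a transposase cuts accessible DNA, in another 3 per treatment. The ATAC-seq replicates are labelled as biological and came from separate dishes. For RNA nothing in the labels says whether the replicates were separate cultures, so p-values there measure only the spread between libraries.

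Oestrogen receptor alpha, encoded by ESR1, is a nuclear receptor that binds DNA after it binds oestradiol, together with pioneer factors such as FOXA1 and GATA3, and recruits coactivators to nearby and distant genes. Its classical DNA element is a palindrome of a pair of GGTCA half-sites. In luminal breast cancer its targets serve as markers of receptor activity, and CDK4/6 inhibitors are given together with drugs that block the receptor.

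The start sites of 7 of the 10 genes could be matched to RefSeq promoters (GRCh38.p14), each running from 250 bases before to 50 bases after the start. They are PGR with 3 entries, PDZK1 with 2, and CA12, STC2, IGFBP4, MYB and AREG with 1 each. GREB1, TFF1 and TFF3 are named only. Promoters were searched on both strands for the full element (GGTCA, any 3 bases, then TGACC), which was in none of the 10 matched entries and in 0.057% of all 35116 promoters. The half-site GGTCA, which the full element contains, was in 6 of the 10 matched entries and in 37.4% of all promoters. These 6 entries belong to 4 of the 7 genes. For each of the 4 genes, 1 entry is printed below, 5′ to 3′ on the strand of the gene. The half-site (GGTCA or its reverse complement TGACC) is in capitals. The printed entries lie at chr11:101129028-101129327 (PGR, minus strand), chr1:145707319-145707618 (PDZK1, minus strand), chr15:63381797-63382096 (CA12, minus strand) and chr5:173328365-173328664 (STC2, minus strand).
PGR: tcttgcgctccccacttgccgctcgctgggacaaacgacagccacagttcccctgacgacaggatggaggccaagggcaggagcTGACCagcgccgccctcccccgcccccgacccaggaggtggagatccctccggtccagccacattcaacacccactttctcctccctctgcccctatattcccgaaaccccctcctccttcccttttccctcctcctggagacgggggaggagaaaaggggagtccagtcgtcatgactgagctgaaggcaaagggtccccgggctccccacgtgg
PDZK1: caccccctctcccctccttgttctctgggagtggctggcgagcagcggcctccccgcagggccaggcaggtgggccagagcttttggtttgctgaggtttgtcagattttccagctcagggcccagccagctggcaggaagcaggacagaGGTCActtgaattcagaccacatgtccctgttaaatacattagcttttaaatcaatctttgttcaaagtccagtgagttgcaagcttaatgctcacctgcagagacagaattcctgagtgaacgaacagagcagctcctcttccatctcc
CA12: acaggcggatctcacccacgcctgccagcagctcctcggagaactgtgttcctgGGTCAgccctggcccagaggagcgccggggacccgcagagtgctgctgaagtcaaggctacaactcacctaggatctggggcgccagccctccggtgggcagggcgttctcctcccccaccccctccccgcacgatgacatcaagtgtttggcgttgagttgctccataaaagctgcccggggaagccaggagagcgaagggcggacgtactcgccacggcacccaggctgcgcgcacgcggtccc
STC2: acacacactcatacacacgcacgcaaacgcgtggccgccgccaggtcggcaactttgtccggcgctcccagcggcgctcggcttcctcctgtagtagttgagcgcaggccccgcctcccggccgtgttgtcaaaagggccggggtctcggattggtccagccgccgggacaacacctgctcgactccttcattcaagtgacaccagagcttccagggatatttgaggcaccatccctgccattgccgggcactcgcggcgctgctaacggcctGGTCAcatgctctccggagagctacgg

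The first base of the half-site lay 166 bases before the start in PGR, 100 bases before it in PDZK1, 196 bases before it in CA12 and 23 bases after it in STC2. A match describes letters in the window and is not evidence of binding. The AREG promoter (chr4:74444886-74445185, plus strand) is shown because an ATAC-seq peak covered all 300 of its bases, and it holds a TATAAA sequence, in capitals, 29 bases before the start.
AREG: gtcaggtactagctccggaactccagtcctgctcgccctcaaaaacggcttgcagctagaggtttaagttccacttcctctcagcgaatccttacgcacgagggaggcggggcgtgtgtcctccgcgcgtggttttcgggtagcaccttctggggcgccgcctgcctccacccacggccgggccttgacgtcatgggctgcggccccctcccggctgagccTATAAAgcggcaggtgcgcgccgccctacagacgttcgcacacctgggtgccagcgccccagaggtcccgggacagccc

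TATAAA occurred at the same distance in IGFBP4 and was in 11.5% of all promoters. The forkhead sequence TGTTTAC was in the MYB promoter and in 3.42% of all. CCAAT was in 2 of the 10 matched entries (PGR and STC2) and in 34.6% of all. GGGCGG was in 7 of the 10 (AREG, CA12, IGFBP4, MYB and PGR) and in 45% of all. TGANTCA (7.71% of all) and TTTGGCGC (0.652% of all) were in none of the matched entries.

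Levels of the 10 genes are given as FPKM, fragments scaled to transcript length and library size, so they may be compared between genes. In DMSO the order from high to low was IGFBP4, STC2, PDZK1, CA12, GREB1, PGR, TFF3, AREG, MYB and TFF1, with means from 346 down to 6.08 FPKM. Only PDZK1 and CA12 overlapped as neighbours in that order. With palbociclib, STC2 overlapped PDZK1, and PGR (mean 124 FPKM) overlapped GREB1 (mean 121 FPKM) from above. The PGR to GREB1 ratio within a library was 0.829 to 0.851 in DMSO and 1.02 to 1.04 with palbociclib, and the groups did not overlap.

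**Figure D1:**
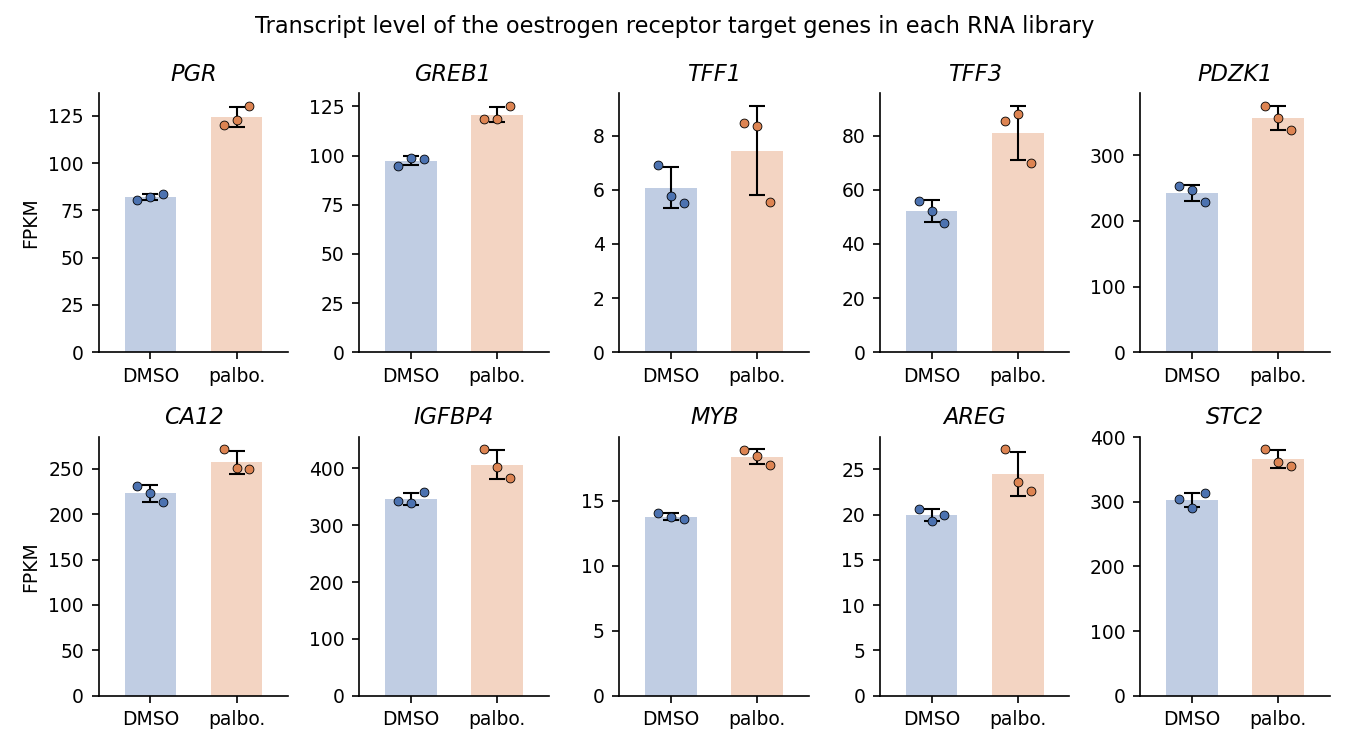
Transcript level (FPKM, y axis) of each gene in the 3 DMSO and 3 palbociclib (palbo.) RNA libraries. Bars are group means, error bars are 1 SD, points are libraries, and in 9 of the 10 genes every palbociclib library lies above every DMSO library, TFF1 being the exception.

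Of the 10 genes, 9 were higher with palbociclib and 0 were lower at a Benjamini-Hochberg adjusted p under 0.05 (limma on log2(FPKM + 1), adjusted over all 15869 genes tested). Over all tested genes, 20.9% were called higher and 22.9% lower, and among those with a mean of at least 5 FPKM, as all 10 have, 24.9% were called higher. The 9 genes had all 3 palbociclib libraries above all 3 DMSO libraries, which held for 26.5% of tested genes. The median log2 change of the 10 genes was 0.29, against 0.00233 over all tested genes. The rises were small, from 1.15-fold to 1.56-fold. In bulk RNA, a change in the share of cells that express a gene and a change in RNA per cell cannot be told apart.

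The transcription regulators came first. PGR, the progesterone receptor and a standard clinical readout of oestrogen receptor function, spans chr11:101029624-101129813 on the minus strand. Its FPKM was 80.4, 82.1 and 83.6 in DMSO and 120, 123 and 130 with palbociclib, so the groups were far apart for their spread. The log2 change was 0.59 ± 0.04 (SE, n = 3 per group), with a limma adjusted p of 5.0e-06. MYB, a transcription factor of progenitor and luminal cells (chr6:135181308-135219172), rose from 14.1, 13.7 and 13.6 to 18.9, 18.4 and 17.8 FPKM. The difference was 0.39 ± 0.04 on the log2 scale (limma adjusted p = 0.00014). GREB1, a receptor-associated cofactor induced by oestrogen (chr2:11482888-11642788), gave 94.8, 99.0 and 98.2 FPKM in DMSO and 119, 118 and 125 with palbociclib. Its groups did not overlap either, with a log2 change of 0.31 ± 0.03 (limma adjusted p = 0.00017).

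Secreted products formed the largest class. TFF1 and TFF3 encode trefoil peptides, small disulphide-linked proteins of mucous secretions, and lie close together on chromosome 21 (TFF1 at chr21:42362282-42366535 and TFF3 at chr21:42311667-42315409). TFF3 had 55.9, 52.3 and 47.8 FPKM in DMSO and 85.5, 88.0 and 69.7 with palbociclib. It showed the highest log2 change of the 10 genes, 0.63 ± 0.09 (limma adjusted p = 0.00069). TFF1, the lowest of the 10 genes, had 6.94, 5.77 and 5.53 FPKM in DMSO and 8.47, 8.35 and 5.55 with palbociclib. Palbociclib replicates 1 and 2 lay above all DMSO libraries, but replicate 3 lay among them, and the log2 change of 0.24 ± 0.14 did not pass (limma adjusted p = 0.21). Without that library the log2 change was 0.42 and passed (limma adjusted p = 0.0098). The TFF3 to TFF1 ratio within a library was 8.07 to 9.06 in DMSO and 10.1 to 12.6 with palbociclib.

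AREG encodes amphiregulin, a ligand of the EGF receptor shed from the cell surface (chr4:74445136-74455005). Its FPKM was 20.7, 19.3 and 19.9 in DMSO and 27.2, 23.6 and 22.7 with palbociclib, and the log2 change was 0.28 ± 0.07 (limma adjusted p = 0.0097). Palbociclib replicate 1 was the highest of the 3. STC2 encodes stanniocalcin 2, a secreted glycoprotein that inhibits the protease PAPPA (chr5:173314723-173328414). It gave 304, 291 and 313 FPKM in DMSO and 381, 362 and 356 with palbociclib, a log2 change of 0.27 ± 0.04 (limma adjusted p = 0.00065). IGFBP4, which binds insulin-like growth factors and is the main substrate of PAPPA (chr17:40443450-40457725), had the highest level of the 10 genes. Its values were 342, 339 and 358 FPKM in DMSO and 434, 403 and 384 with palbociclib, and the log2 change was 0.23 ± 0.05 (limma adjusted p = 0.0044).

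The membrane enzyme and the scaffold also rose. CA12 is a transmembrane carbonic anhydrase with its catalytic part outside the cell (chr15:63321378-63381846). Its FPKM was 231, 224 and 213 in DMSO and 271, 250 and 250 with palbociclib, the lowest log2 change of the 10 genes at 0.21 ± 0.04 (limma adjusted p = 0.0056). PDZK1, a scaffold with PDZ domains that holds membrane transporters (chr1:145670852-145707400), had 253, 247 and 229 FPKM in DMSO and 375, 357 and 339 with palbociclib. This was a log2 change of 0.56 ± 0.05 (limma adjusted p = 4.0e-05), and with PGR and TFF3 it made up the 3 genes above 0.5. PDZK1 has near-identical copies in the genome, and how reads shared with them were assigned is not given in the sources used here.

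The authors' deposited table gave log2 fold changes close in size, from 0.207 for CA12 to 0.639 for TFF3, and an adjusted p under 0.05 for 9 of the 10 genes. In the authors' deposited table TFF1 had a log2 fold change of 0.293, a mean normalized count of 123 and an adjusted p of 0.378. The same table marks all 10 genes as ns in its column of called genes. The 223 genes marked upreg and 833 marked downreg in the authors' deposited table all had an absolute log2 fold change of at least 1.00, above that of any of the 10 genes.

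For each gene, the 1 other named gene with the most similar profile was sought among 12933 genes with a mean of at least 1 FPKM, as the smallest Euclidean distance between centred log2(FPKM + 1) values over the 6 RNA libraries. These were SPINK5 for PGR (distance 0.070), USP54 for GREB1 (0.028), LEF1 for TFF1 (0.12), MIDN for TFF3 (0.088) and BNIPL for PDZK1 (0.051). The others were POLR3E for CA12 (0.032), SCPEP1 for IGFBP4 (0.038), ANXA6 for MYB (0.035), PEG10 for AREG (0.042) and AZGP1 for STC2 (0.024). None of the 10 genes had another of the 10 as its nearest. With 12933 candidates and 6 libraries, that cannot show whether the 10 genes moved together.

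Of 43 other oestrogen targets listed by name, 41 passed the filter on low values (SLC7A2 and BCL2 did not). Of these 41, 26 rose, 5 fell and 10 did not pass, with a median log2 change of 0.23. Over all tested genes, 20.9% rose and 22.9% fell. CCND1, encoding cyclin D1, the partner of CDK4 and CDK6, had the largest rise, from 98.7, 97.2 and 94.3 to 205, 205 and 199 FPKM (log2 change 1.06 ± 0.03, limma adjusted p = 2.9e-08). The small heat shock protein gene HSPB8 followed at 0.72 ± 0.04, then ANXA9 at 0.60 ± 0.08 and SUSD3 at 0.53 ± 0.06. The largest falls were in IL17RB, an interleukin receptor subunit, at -0.51 ± 0.05, the protease gene PRSS23 at -0.36 ± 0.08, OLFM1 at -0.24 ± 0.04 and the kinase gene SGK3 at -0.15 ± 0.04.

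The receptor itself changed little. ESR1 went from 44.0, 43.6 and 41.9 to 49.95, 46.4 and 48.4 FPKM, a log2 change of 0.16 ± 0.04 (limma adjusted p = 0.012). FOXA1 changed by 0.14 ± 0.03 (limma adjusted p = 0.0080) and GATA3 by 0.25 ± 0.03 (limma adjusted p = 0.00015). Of 18 receptor, pioneer factor and cofactor genes, 8 rose, 5 fell and 5 did not pass. Their median log2 change was 0.020, and over all tested genes 20.9% rose and 22.9% fell. After quantile normalization the split of the 18 genes was 9 higher and 3 lower. The largest rises were ESR2, the beta receptor, at 0.36 ± 0.08 from a mean of only 1.02 FPKM, the corepressor TLE3 at 0.27 ± 0.06, TFAP2C at 0.26 ± 0.05 and SPDEF at 0.26 ± 0.05. The largest falls were the coregulator PELP1 at -0.45 ± 0.07, the acetyltransferase gene CREBBP at -0.30 ± 0.07, the coactivator NCOA2 at -0.26 ± 0.06 and the demethylase gene KDM1A at -0.25 ± 0.04.

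A list of 32 paralogs and partners of the 10 genes had 23 in the table, of which 17 were tested. Of these, 4 rose, 4 fell and 9 did not pass, while 20.9% of all tested genes rose and 22.9% fell. PAPPA, TFF2 and PDZK1P1 were not found by symbol among the genes with deposited FPKM. IGFBP5 rose from 325, 325 and 333 to 616, 610 and 612 FPKM (log2 change 0.90 ± 0.03, limma adjusted p = 3.3e-08), against 0.23 for its paralog IGFBP4. STC1 rose by 0.62 ± 0.07 and IGF1R by 0.19 ± 0.05. The paralogs of MYB fell while MYB rose. MYBL2, a cell cycle gene, had 67.4, 70.3 and 69.0 FPKM in DMSO and 2.89, 3.13 and 3.24 with palbociclib, a log2 change of -4.10 ± 0.05 (limma adjusted p = 3.9e-10), and MYBL1 had -0.66 ± 0.04. NR3C1, the glucocorticoid receptor, changed by -0.40 ± 0.06, and IGF2 by -0.33 ± 0.10 at a mean below 1 FPKM. EGFR, the receptor of amphiregulin, was low (means of 2.12 and 1.85 FPKM) and did not pass (log2 change -0.13, limma adjusted p = 0.25). EREG, a ligand gene related to AREG, was below the filter, at 0.122 to 0.303 FPKM in all 6 libraries.

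**Figure D2:**
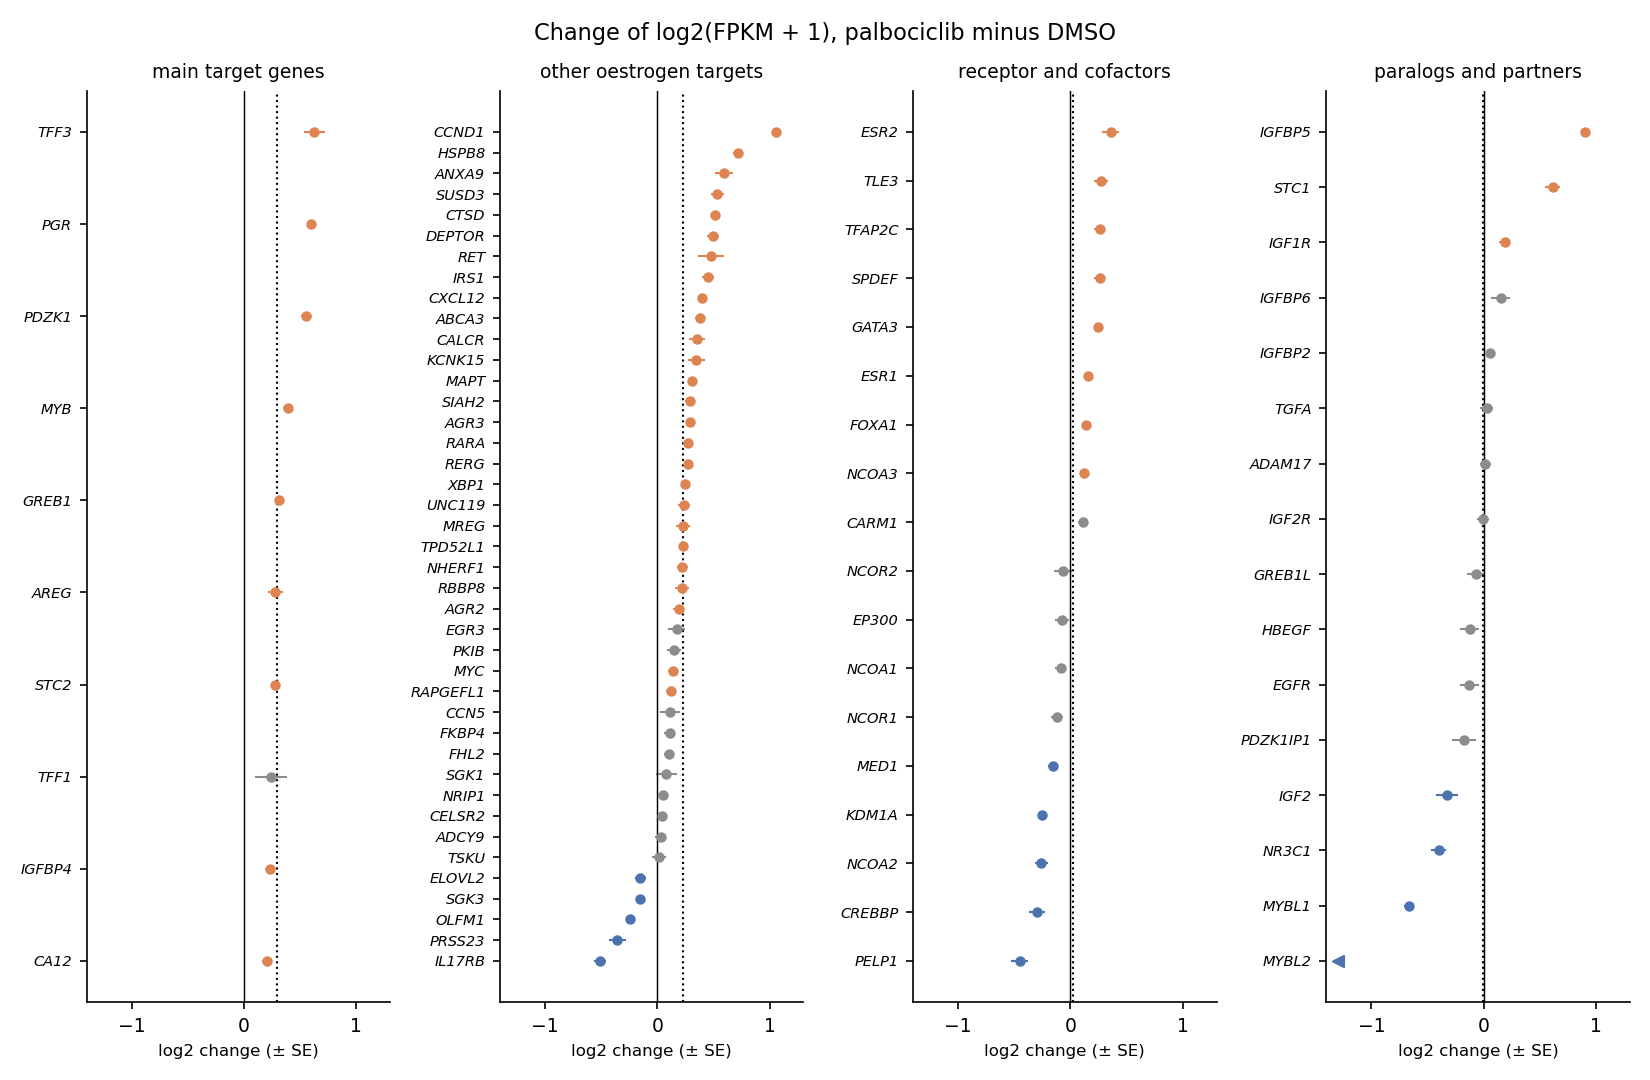
Change of log2(FPKM + 1), palbociclib minus DMSO (x axis, points with SE), for tested genes of the 4 lists. Orange marks genes that rose, blue genes that fell, grey genes that did not pass, the dotted line the list median, and the arrowhead MYBL2, whose value of -4.10 lies off the axis.

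The 10 proliferation genes listed as a check of the drug, such as MKI67 and RRM2, all fell, by log2 changes of -2.53 to -5.38. Of 8 luminal epithelial markers, 7 rose, while 20.9% of all tested genes rose. The other, EPCAM, had a log2 change of -0.14 and did not pass (limma adjusted p = 0.054). The summed level of the 8 was 5510 to 6038 FPKM in DMSO and 7386 to 8176 FPKM with palbociclib. Most of that sum was KRT19 (means of 2113 and 2916 FPKM), KRT8 (1698 and 2491) and KRT18 (996 and 1413). The part of these markers in the rise of the 10 genes was not tested. Of the other lists, TP63 (basal) was at most 0.113 FPKM and CD14 (leukocyte) at most 0.368 FPKM. COL1A1 and COL3A1 (fibroblast) were together 23.4 to 24.6 FPKM in DMSO and 24.3 to 26.5 FPKM with palbociclib. Nearly all of that was COL1A1 (means of 23.65 and 25.12 FPKM), as COL3A1 was at most 0.52 FPKM. Endothelial markers and KRT5, KRT14, DCN, PDGFRB, PTPRC and CD3E were not found by symbol among the genes with deposited FPKM.

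Chromatin accessibility was read from 38121 peaks, with 12830062 to 18250496 counts in peaks per library. Of these peaks, 30 lay inside or within 20 kb of the 10 genes, 8 of them at GREB1 and 1 at PDZK1. By edgeR's quasi-likelihood test, 2 of the 30 were higher and 4 were lower with palbociclib at an adjusted p under 0.05. Over all peaks 5.41% were higher and 6.46% lower. The median log2 change of the 30 peaks was -0.026, against 0.0043 over all peaks. A value below 0 was found in 20 of the 30 and in 18693 of all 38121 peaks.

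The 4 peaks that fell each lay inside a gene whose RNA rose. This was so for all 18 peaks inside the genes, because TFF1 had 0, so it does not set the 4 apart. In PGR the peak at chr11:101034013-101034701, 95.5 kb into the gene from its most upstream start and close to its 3′ end, had 82.3, 84.1 and 93.9 CPM (counts scaled to the normalized library size) in DMSO and 68.0, 71.7 and 58.3 with palbociclib. The log2 change was -0.39 ± 0.06 (SE, n = 3 per group, edgeR adjusted p = 3.5e-06). In GREB1 the peak at chr2:11539204-11540236, 56.8 kb into the gene, went from 159, 168 and 171 to 145, 148 and 125 CPM. It was the highest of the 8 GREB1 peaks, with a log2 change of -0.25 ± 0.05 (edgeR adjusted p = 0.00032), while the other 7 did not pass. In IGFBP4 the peak at chr17:40448313-40449231, 5.3 kb into the gene, gave 116, 122 and 118 CPM in DMSO and 102, 115 and 90.5 with palbociclib. Its log2 change was -0.21 ± 0.06 (edgeR adjusted p = 0.0063), but without palbociclib replicate 3, the lowest, it was -0.13 and did not pass (edgeR adjusted p = 0.097).

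At STC2 a pair of peaks 448 bases apart near the 3′ end of the gene moved in opposite directions. The peak at chr5:173315431-173316406 fell from 112, 102 and 106 to 86.0, 89.4 and 78.5 CPM (log2 change -0.33 ± 0.05, edgeR adjusted p = 9.3e-06). Its neighbour at chr5:173314037-173314982, which covers the annotated 3′ end and was named after its values were seen, rose from 64.1, 58.8 and 63.1 to 73.9, 79.5 and 69.8 CPM (log2 change 0.27 ± 0.06, edgeR adjusted p = 0.0014). Neither pair of groups overlapped. The other peak that rose lay at chr4:74474553-74475522, beyond the 3′ end of AREG and in no annotated gene. It had 29.2, 33.0 and 32.0 CPM in DMSO and 38.3, 40.1 and 33.3 with palbociclib, where the lowest palbociclib library lay just above the highest DMSO one, with a log2 change of 0.24 ± 0.08 (edgeR adjusted p = 0.034). That call was lost with DESeq2 (adjusted p = 0.11) and without DMSO replicate 1, DMSO replicate 3, palbociclib replicate 1 or palbociclib replicate 2, where the edgeR adjusted p was 0.079 to 0.18.

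**Figure D3:**
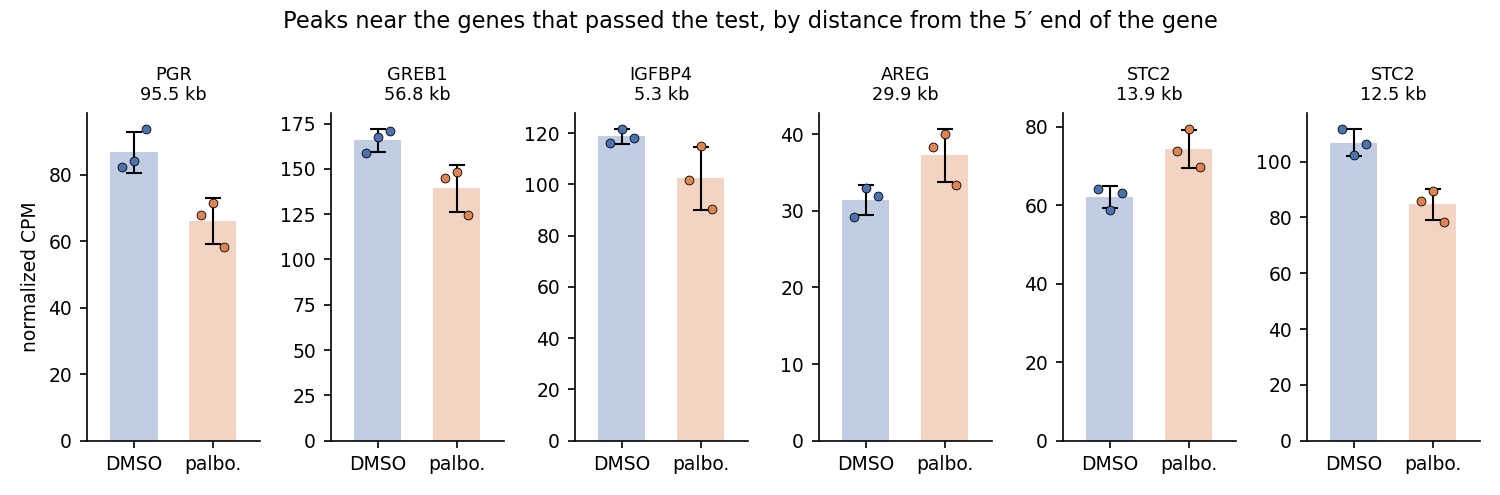
Normalized counts (CPM, y axis, bars as means, error bars as 1 SD, points as libraries) in the 6 peaks that passed the test, each headed by its gene and the distance from the 5′ end of the gene to the middle of the peak. The PGR, GREB1, IGFBP4 and 12.5 kb STC2 peaks were lower with palbociclib, and the AREG and 13.9 kb STC2 peaks were higher.

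Peaks within 1 kb of a start were listed for 3 of the 10 genes and did not pass. For GREB1 and TFF3, which had no matched promoter, the 5′ end of the gene span stood in for the start. For TFF1 both ends of the span did, so other starts of these genes were not checked. At CA12 (chr15:63381524-63382370), which covers the promoter printed above, the means were 71.3 and 70.0 CPM (log2 change -0.024 ± 0.060, edgeR adjusted p = 0.85). At AREG (chr4:74444829-74445801) they were 63.1 and 62.0 (log2 change -0.025 ± 0.060, edgeR adjusted p = 0.84), and at TFF3 (chr21:42315295-42315855) 66.4 and 62.7 (log2 change -0.083 ± 0.066, edgeR adjusted p = 0.46). Of 10994 tested genes with a promoter entry, 44% had a listed peak within 1 kb of a start, so that the lack of one at PGR or STC2 does not show closed chromatin. The near peaks with the smallest p at the remaining genes did not pass either. These were TFF1 (chr21:42376178-42377101, inside TMPRSS3, log2 change -0.20, edgeR adjusted p = 0.072), PDZK1 (chr1:145711162-145711597, -0.17, 0.093), MYB (chr6:135210822-135211780, 0.30, 0.070), CA12 (chr15:63389852-63390212, -0.049, 0.80) and TFF3 (chr21:42319742-42320314, 0.15, 0.21). The MYB peak, which also overlaps LOC105378011, passed without palbociclib replicate 3 (log2 change 0.43, edgeR adjusted p = 0.0056), without DMSO replicate 1 (adjusted p = 0.036) and with scaling to library totals alone (adjusted p = 0.047). It passed in none of the other alternatives, and without DMSO replicate 2 the edgeR adjusted p was 0.35. The TFF1 peak passed only without palbociclib replicate 2 (log2 change -0.25, edgeR adjusted p = 0.040).

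**Figure D4:**
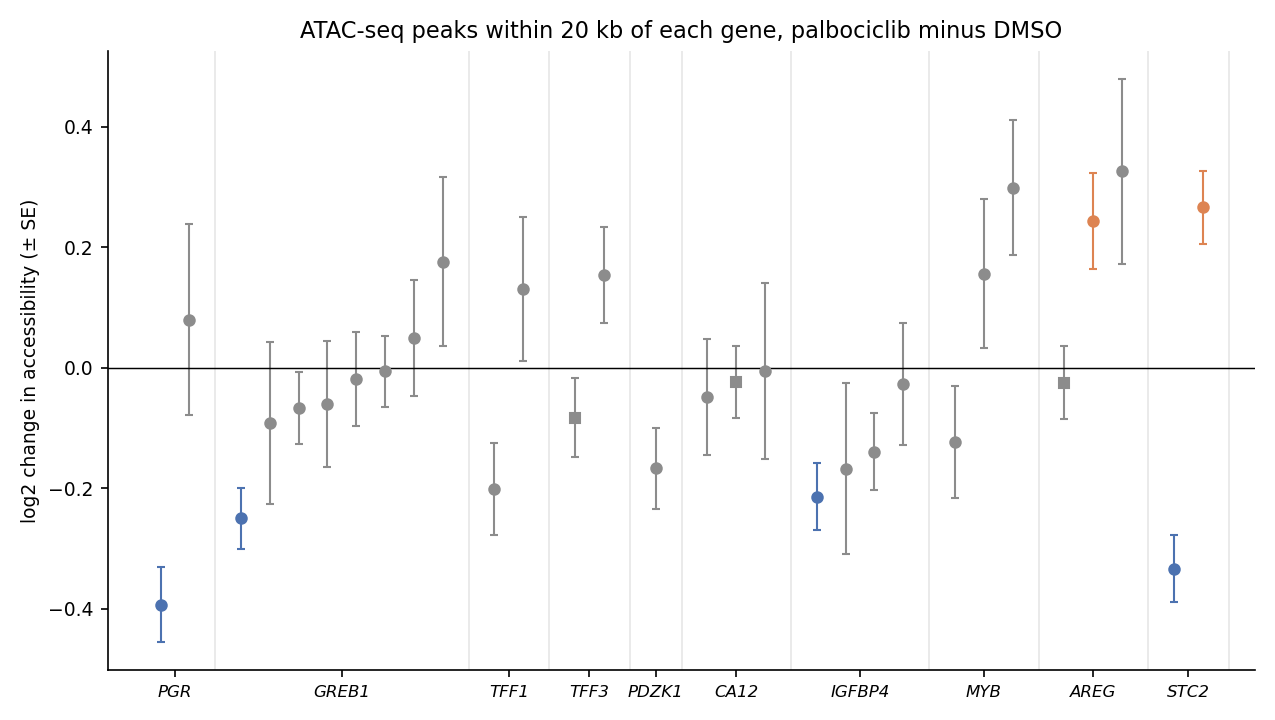
Log2 change in accessibility, palbociclib minus DMSO (y axis, points with SE), of the 30 peaks in or within 20 kb of the genes, sorted within each gene. Squares are peaks within 1 kb of a start, orange and blue are peaks that were higher and lower by the test, and grey peaks did not pass.

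The splicing tables listed 167 alternative events in 8 of the 10 genes, of which 117 were skipped exons, 39 mutually exclusive exons, 6 alternative 5′ and 5 alternative 3′ splice sites. TFF1 and STC2 had none listed. After filters on reads and on the rarer form, 47 events were tested, 35 of them listed as mutually exclusive exons. The 47 lay in GREB1 (21), PGR (7), MYB (7), PDZK1 (6), CA12 (4) and AREG (2). None passed at an adjusted p under 0.05 in edgeR's quasi-likelihood test of inclusion against skipping reads, while 0.35% of all 37445 tested events passed. An unadjusted p under 0.05 was found in 5 of the 47 events, and in 8.53% of all tested events. The inclusion level is the share of the length-scaled reads of an event that carry the exon, and for mutually exclusive exons the share on 1 exon of the pair. Its mean differed by at most 0.071 in any tested event.

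The smallest p belonged to a skipped exon of 63 bases in PDZK1 (chr1:145671427-145671489), included at 0.912, 0.915 and 0.916 in DMSO and 0.896, 0.895 and 0.886 with palbociclib. The groups did not overlap, yet the edgeR adjusted p was 0.36. In PGR, an exon at chr11:101126007-101126158, listed as mutually exclusive with one at chr11:101091760-101091876, had mean levels of 0.283 in DMSO and 0.258 with palbociclib (edgeR adjusted p = 0.61). Corresponding means were 0.521 and 0.548 for a pair in GREB1 (edgeR adjusted p = 0.73) and 0.661 and 0.624 for a 33-base exon of CA12 (edgeR adjusted p = 0.69). Other listed events of that CA12 exon gave means of 0.8874 and 0.8166, 0.9865 and 0.9844, and 0.9915 and 0.993. Its inclusion level thus depends on which event is read. Where they were listed as skipped exons, both exons of the GREB1 pair had mean inclusion levels of at least 0.9566 in each group. The level of that pair thus compares reads on exons that were mostly both included. The MYB and AREG events of smallest p had edgeR adjusted p-values of 0.94 and 0.95. One skipped exon of 72 bases in MYB (chr6:135187834-135187905), singled out after its values were seen, has an FDR of 0.013 in the authors' deposited table. It was included at 0.916, 0.955 and 0.98 in DMSO and 0.995, 0.976 and 0.99 with palbociclib, groups that overlapped, and was left out by the filter on the rarer form, as the skipped form made up 1.72% of its reads. Without that filter it did not pass (edgeR adjusted p = 0.76).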

How the data were processed

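RNA (6 libraries) and ATAC-seq (6 libraries) of T-47D cells were analysed from deposited tables, grouped by the labels. The 10 genes and all lists were chosen with earlier results of these data known.

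The authors deposited FPKM per gene and library. The authors' table also holds a mean normalized count, used as a signal value, log2 fold changes with errors, and adjusted p-values, as deposited. Splicing tables give the authors' inclusion and skipping read counts, FDR p-values and a difference of inclusion levels, a score. The ATAC table holds counts per peak made by the authors from deduplicated alignments, per the file headers. The submitters' processing notes name fastp 0.23.2, Salmon 1.10.2, STAR 2.7.10b and DESeq2 1.44.0 for RNA, Bowtie2 2.5.4-6, MACS3 3.0.3-0 and featureCounts for ATAC-seq, and build GRCh38, without their roles. RNA counts per library were not used, so RNA depth is not given here. The counting strand is not given in the sources used here.

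Genes averaging 0.5 FPKM or more were compared by limma 3.58.1 in R 4.3.3, using log2(FPKM + 1) values and a variance prior that follows the mean. The pseudocount understates changes of low genes. Peak counts were tested with edgeR 4.0.16 (TMM, quasi-likelihood, low-count filter), and splicing counts with edgeR, with library terms and an inclusion by treatment term, for events averaging 20 reads or more per library whose rarer form made up 5% or more. P-values were adjusted by Benjamini-Hochberg over each whole table (each event type in splicing). The fits were tested on simulated data. Alternatives were other filters, pseudocounts, normalizations, DESeq2 1.42.0 for peaks, windows, a replicate block and leaving out each library.

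Named were the 10 genes, up to 4 largest rises and falls per list among called genes without overlap, ESR1, FOXA1, GATA3, EGFR, PAPPA, TFF2, PDZK1P1 and EREG, the most similar profile per gene, promoter peaks, and the peak and splicing event of smallest p per gene. A gene of the paralog list that the rule names, and a leukocyte marker, are not reported here.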

Additional observations from a re-analysis of the deposited data

How the results depend on the processing

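The calls of the 9 genes that rose held in all 12 alternatives run on RNA, with log2 changes of 0.17 (CA12) to 0.73 (TFF3). TFF1 passed in 1 of them. The count of other oestrogen targets that rose, 26, was 30 after quantile normalization and 22 to 25 with each library left out. The count of other oestrogen targets that fell, 5, was 3 after quantile normalization and 3 to 4 with each library left out, and that of receptor and cofactor genes that fell, 5, was 3 after quantile normalization. The count of higher peaks near the 10 genes, 2, was 1 with DESeq2, 1 to 3 with each library left out, 1 in a window of 5 kb (22 peaks) and 4 in a window of 50 kb (51 peaks). The count of lower peaks, 4, was 9 in the 50 kb window and 3 to 5 with each library left out. A replicate block left the counts at 9 higher and 0 lower for the 10 genes, 27 and 4 for the other targets, 8 and 5 for receptor and cofactors, 4 and 4 for paralogs and partners, 2 and 4 for peaks, and 0 splicing events. Same-numbered libraries deviated together only weakly (r of -0.005 to 0.106 in RNA and -0.025 to 0.039 in ATAC-seq), so the numbers were not taken to pair libraries. The splicing count was 0 in every alternative run.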

Other observations

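Peaks near the other gene groups are given for scale. Within 20 kb of the 43 other oestrogen targets lay 153 peaks, of which 6 (3.92%) were higher and 17 (11.1%) lower with palbociclib by edgeR's quasi-likelihood test. Within 20 kb of the 18 receptor and cofactor genes lay 66 peaks, 2 of them higher (3.03%) and 7 lower (10.6%). Around the 2999 genes with a RefSeq position that rose in RNA, 5.5% of 7640 peaks were higher and 7.51% were lower. Around the 3415 that fell, 4.71% of 6625 peaks were higher and 12.2% were lower. Around the 7372 tested genes with no call in RNA, 4.56% of 14245 peaks were higher and 7.39% were lower. Some peaks are near genes of more than 1 group, and these shares were not tested against each other.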
